A study of Mus musculus with 32 samples.

Results

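The genes described here are 9 markers of platelets and their parent cell, the megakaryocyte: Ppbp, Pf4, Gp1bb, Gp9, Gp6, Itga2b, Itgb3, Treml1 and Clec1b. The genes were chosen by name, and a probeset was taken for a gene when the platform annotation gave that symbol alone. For a gene with several probesets, the rule selected on the mean signal over the 32 arrays and took the highest. By this rule 7 of the 9 genes were measured, out of 19938 genes represented on the array. Each of the 7 had 1 probeset, so the signal itself decided nothing about which probeset was used. Gp1bb lay only on a probeset shared with its neighbor Septin5, and Gp6 was not matched to a probeset. Neither was given a level.

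Gene expression had been measured in 2 experiments on Affymetrix mouse gene arrays, and all values are log2 RMA signals, on which a difference of 1 is a 2-fold change. RMA removes background, brings the arrays to a common distribution and combines the probes of a gene into 1 value. In the leukemia experiment, bone marrow of leukemic Pax5+/-;Myd88+/- mice (n = 6) and leukemic Pax5+/- mice (n = 6) was compared with proB/preB cells sorted as B220low IgM- from healthy WT mice (n = 4). In the second experiment, B220+ proB cells came from Pax5+/-;Myd88+/-, Pax5+/-;Myd88-/-, Pax5+/- and WT mice without leukemia (n = 4 each). The labels describe these cells as taken from marrow by magnetic sorting. The methods describe them as grown with IL-7 on ST2 stromal feeder cells from mice 2 to 3 weeks old, without naming the Pax5+/-;Myd88-/- genotype. They are called cultures below, after the methods. Pax5 is the transcription factor that commits cells to the B lineage, and Myd88 is the adaptor of most Toll-like receptors. Both mutations were germline, so every cell of a mouse carried them, and all mice were of mixed C57BL/6×CBA background and received no treatment. The labels give the same housing for all mice, free of specific pathogens and then conventional from the age of 2 months. The age of 2 to 3 weeks that the methods give for the proB cells lies before that move. Whether those mice were exposed to infection is thus unclear. The ages of the leukemic mice at sampling are not given in the sources used here. The labels name no sort for the leukemic marrow, whereas the WT cells were sorted, so leukemia and sorting cannot be told apart when these are compared. Each array is labelled as a biological replicate from 1 mouse.

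Megakaryocytes are large polyploid cells of the bone marrow that shed platelets into the blood. Platelets have no nucleus but carry RNA from their megakaryocyte. The genes cover the main functions of a platelet. Ppbp and Pf4 encode chemokines stored in its α-granules. Gp9 and Gp1bb encode subunits of the receptor for von Willebrand factor. Itga2b and Itgb3 encode the 2 chains of the fibrinogen receptor, αIIbβ3. Gp6 and Clec1b encode signaling receptors for collagen and podoplanin, and Treml1 encodes a receptor of the α-granule membrane. Itgb3 is the least restricted of them, since β3 also pairs with αv on macrophages, osteoclasts and endothelial cells. In bulk samples, fewer cells of a type and less RNA per cell cannot be told apart.

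The 250 bases upstream of the start of 8 of the 9 genes were read from RefSeq on build GRCm38.p6, and are shown for the 2 chemokines and for 1 subunit of each adhesion receptor, as the sequence that precedes genes whose levels moved together. They are written 5′ to 3′ on the gene's strand and end at the base before the start that the promoter table uses, which for Gp9 and Gp6 lies inside the annotated gene, so that the Gp9 window lies wholly and the Gp6 window partly within its gene. Capitals mark 3 motifs searched on both strands: AGATAA, bound by GATA factors, AGGAAG, bound by ETS factors, and TGANTCA, shared by NF-E2 and AP-1 sites.
Ppbp, chr5:90768268-90768517 (+ strand): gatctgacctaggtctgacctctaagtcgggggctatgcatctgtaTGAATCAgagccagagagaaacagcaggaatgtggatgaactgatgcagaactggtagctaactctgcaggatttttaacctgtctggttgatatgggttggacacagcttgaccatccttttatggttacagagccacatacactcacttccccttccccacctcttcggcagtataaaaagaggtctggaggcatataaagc
Pf4, chr5:90772185-90772434 (+ strand): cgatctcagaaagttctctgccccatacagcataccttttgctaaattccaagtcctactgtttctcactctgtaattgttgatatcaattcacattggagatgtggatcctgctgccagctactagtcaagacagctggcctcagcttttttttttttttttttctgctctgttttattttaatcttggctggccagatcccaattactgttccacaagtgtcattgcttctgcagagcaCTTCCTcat
Gp9, chr6:87777820-87778069 (+ strand): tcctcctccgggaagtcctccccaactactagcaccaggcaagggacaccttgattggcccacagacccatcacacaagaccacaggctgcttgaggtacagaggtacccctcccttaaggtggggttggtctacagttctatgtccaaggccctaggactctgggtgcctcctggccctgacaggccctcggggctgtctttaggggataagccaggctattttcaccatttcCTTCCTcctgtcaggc
Itga2b, chr11:102469884-102470133 (- strand): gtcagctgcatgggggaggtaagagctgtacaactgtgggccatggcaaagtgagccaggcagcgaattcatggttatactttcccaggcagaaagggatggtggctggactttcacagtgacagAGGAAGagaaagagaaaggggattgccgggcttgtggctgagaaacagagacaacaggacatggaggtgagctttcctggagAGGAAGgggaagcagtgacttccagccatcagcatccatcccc
AGATAA was found in 1 of the 8 upstream windows (Gp6), against 9.99% of 32851 RefSeq windows of the same length. AGGAAG was found in 3 of 8 (Pf4, Gp9 and Itga2b), against 29.5%, and TGANTCA in 2 of 8 (Ppbp and Gp1bb), against 6.75%. In Pf4 and Gp9 the match lies on the other strand and reads CTTCCT. No window held more than 1 of the 3 motifs. These matches are letters in a window and say nothing about binding. Ppbp (chr5:90768518-90770063) and Pf4 (chr5:90772435-90773383) are neighbors on chromosome 5. Gp9 (chr6:87776131-87779786) and Clec1b (chr6:129397297-129405413) lie on chromosome 6, Itga2b (chr11:102453297-102469883) and Itgb3 (chr11:104608000-104670476) on chromosome 11, and Treml1 (chr17:48359916-48367176) on chromosome 17.

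On average, all 7 measured genes were higher in leukemic marrow than in non-leukemic precursors, and they varied more between leukemias. Over replicates, their median SD was 0.95 log2 units in Pax5+/-;Myd88+/- leukemias and 0.84 in Pax5+/- leukemias, against 0.08 in sorted WT cells. The median SD of all 28944 probesets was 0.15 in Pax5+/-;Myd88+/- leukemias and 0.17 in Pax5+/- leukemias, against 0.10 in sorted WT cells. In the proB cultures the genes' median SD was 0.08 to 0.11, against 0.09 to 0.11 for all probesets. The median signal of an array was between 6.88 and 7.03, and the lowest correlation of any pair of replicates over all probesets was 0.9666.

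**Figure D1:**
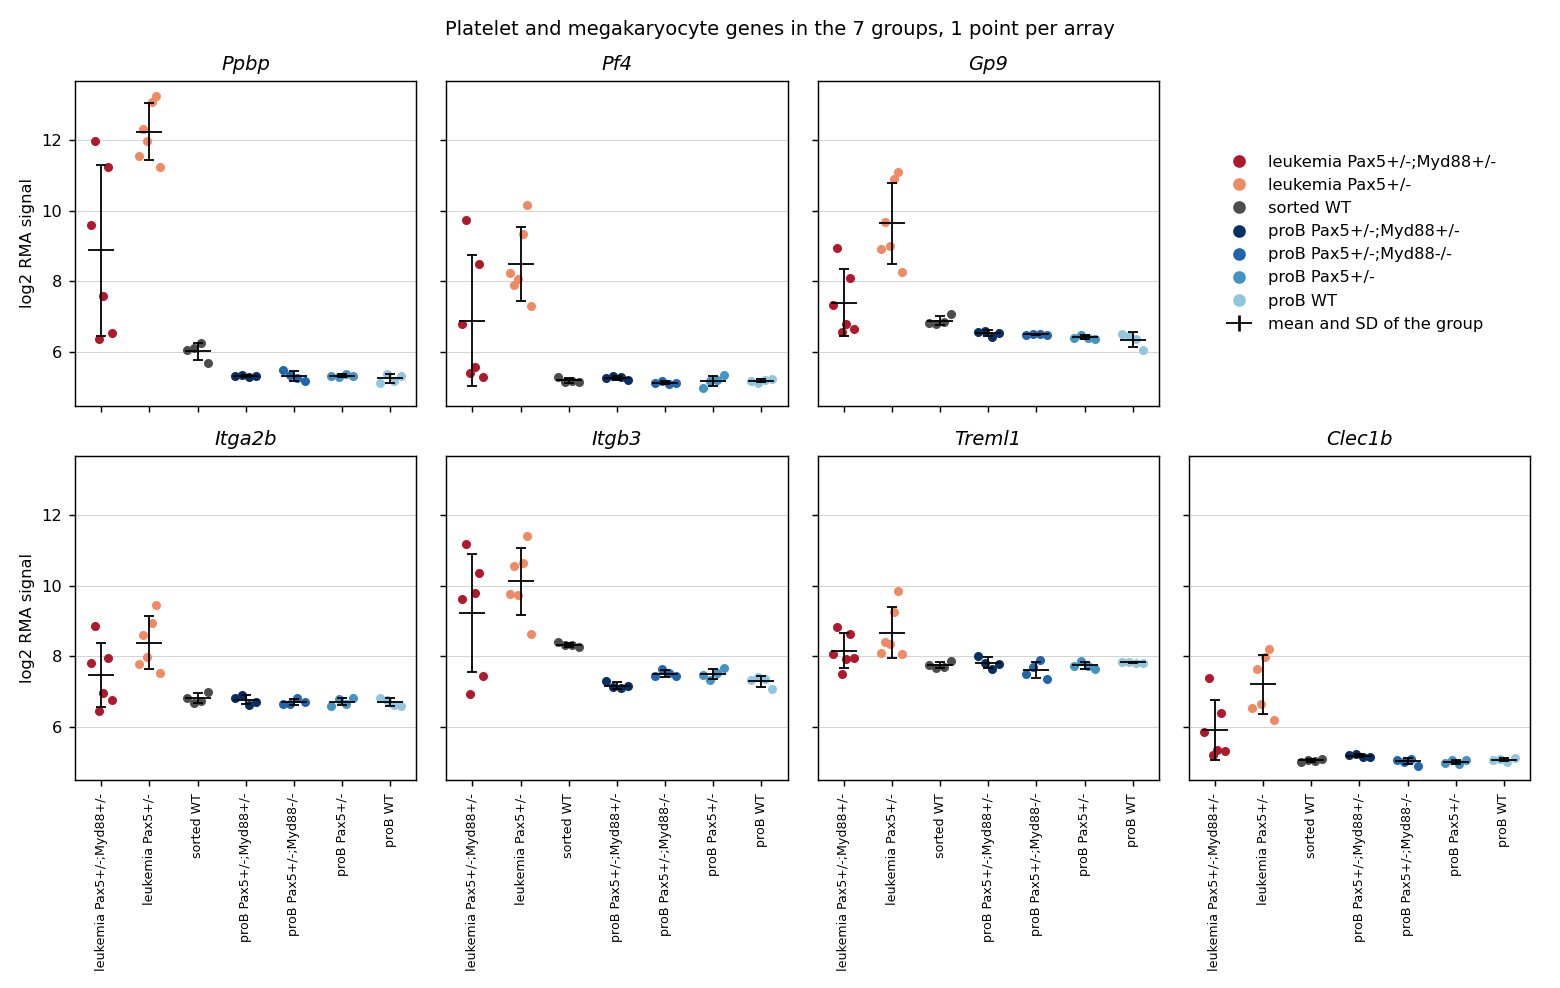
log2 RMA signal (vertical axis) of the 7 measured genes in the 7 groups, with 1 point per array and black bars for the mean and SD of the group. The leukemias spread over up to 5.61 log2 units (Ppbp in Pax5+/-;Myd88+/-), while the sorted WT and proB groups stayed within 0.57.

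Ppbp, the precursor of the neutrophil-attracting chemokine CXCL7, had the widest range. In the 6 Pax5+/-;Myd88+/- leukemias it measured 6.37, 6.53, 7.58, 9.59, 11.25 and 11.98, in ascending order. In the 6 Pax5+/- leukemias it measured 11.25, 11.56, 11.97, 12.32, 13.08 and 13.26, against 5.69, 6.06, 6.10 and 6.26 in sorted WT cells. Every leukemia was thus above every sorted WT sample, and the leukemia groups met only at the top of the first and the bottom of the second. The range in Pax5+/-;Myd88+/- leukemias was 48.8-fold, and 0.0449% of all probesets had an SD as large in that group. In Pax5+/- leukemias the range was 4.03-fold.

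Pf4, platelet factor 4, followed the same outline. It measured 5.29, 5.40, 5.57, 6.79, 8.49 and 9.74 in Pax5+/-;Myd88+/- leukemias and 7.29, 7.90, 8.06, 8.24, 9.33 and 10.17 in Pax5+/- leukemias, against 5.14 to 5.30 in sorted WT cells. The lowest Pax5+/-;Myd88+/- leukemia lay inside the range of the sorted WT cells. The highest one was above 5 of the 6 Pax5+/- leukemias.

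Gp9, a small subunit needed for surface display of the von Willebrand factor receptor, measured 6.56, 6.66, 6.78, 7.33, 8.11 and 8.95 in Pax5+/-;Myd88+/- leukemias. It measured 8.28, 8.92, 8.99, 9.67, 10.89 and 11.11 in Pax5+/- leukemias, against 6.79 to 7.07 in sorted WT cells. Of these, 3 Pax5+/-;Myd88+/- leukemias were below all sorted WT samples and the other 3 above them.

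Itga2b, or CD41, the α-chain that marks megakaryocytes, measured 6.46, 6.77, 6.96, 7.80, 7.95 and 8.86 in Pax5+/-;Myd88+/- leukemias. It measured 7.52, 7.78, 7.98, 8.60, 8.94 and 9.46 in Pax5+/- leukemias, against 6.81 ± 0.14 (SD, n = 4) in sorted WT cells. The leukemia groups overlapped over most of their ranges. Itgb3, its partner, measured 6.92, 7.45, 9.61, 9.80, 10.36 and 11.17 in Pax5+/-;Myd88+/- leukemias and 8.62, 9.74, 9.77, 10.56, 10.63 and 11.40 in Pax5+/- leukemias, against 8.25 to 8.39 in sorted WT cells. For Itgb3, 2 Pax5+/-;Myd88+/- leukemias were below the sorted WT range, by more than for any of the other genes.

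Clec1b, or CLEC-2, measured 5.19, 5.30, 5.33, 5.84, 6.40 and 7.37 in Pax5+/-;Myd88+/- leukemias and 6.20, 6.52, 6.66, 7.63, 7.98 and 8.21 in Pax5+/- leukemias, against 5.01 to 5.10 in sorted WT cells. Every leukemia was above the sorted WT cells. Treml1 varied least, with 7.51 to 8.84 (median 8.02) in Pax5+/-;Myd88+/- leukemias and 8.07 to 9.86 (median 8.38) in Pax5+/- leukemias, against 7.68 to 7.86 in sorted WT cells.

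Loss of 1 Myd88 allele in leukemia was addressed by comparing the 2 leukemia groups. Ppbp, Gp9 and Clec1b were lower in Pax5+/-;Myd88+/- leukemias, and the other 4 genes did not pass. Ppbp was 10.2-fold lower (log2 -3.36, SE 0.85, adjusted p = 0.00675), the third largest fall of 28944 probesets. With 1 array left out its log2 change lay between -3.98 (without Pax5+/-;Myd88+/- replicate 2, a shift of over 1.5-fold) and -2.85 (without replicate 3). All p-values of changes here are from limma, which fits a linear model to each probeset, and are adjusted over all probesets by the Benjamini-Hochberg method. Gp9 was 4.74-fold lower (log2 -2.24, SE 0.50, adjusted p = 0.00274) and Clec1b 2.45-fold lower (log2 -1.30, SE 0.40, adjusted p = 0.0205). These 3 of 7 were called lower, that is, at an adjusted p under 0.05 and more than 2-fold, and 2.56% of all probesets were. The remaining 4 differed by -1.62 (Pf4, SE 0.71, adjusted p = 0.091), -0.91 (Itga2b, SE 0.39, adjusted p = 0.0837), -0.90 (Itgb3, SE 0.64, adjusted p = 0.297) and -0.52 (Treml1, SE 0.29, adjusted p = 0.187). The median over the 7 genes was -1.30, against 0.01 over all probesets, with all 7 values below 0. In none of the 7 genes were the 2 leukemia groups apart on every array, which 6.98% of probesets were in this direction. Without Pax5+/-;Myd88+/- replicate 2, Pf4 and Itga2b were called as well (5 of 7), and in a test that let the groups differ in variance only Gp9 was (1 of 7). That platelet markers were lower in this comparison was known from these arrays when the genes were chosen.

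**Figure D2:**
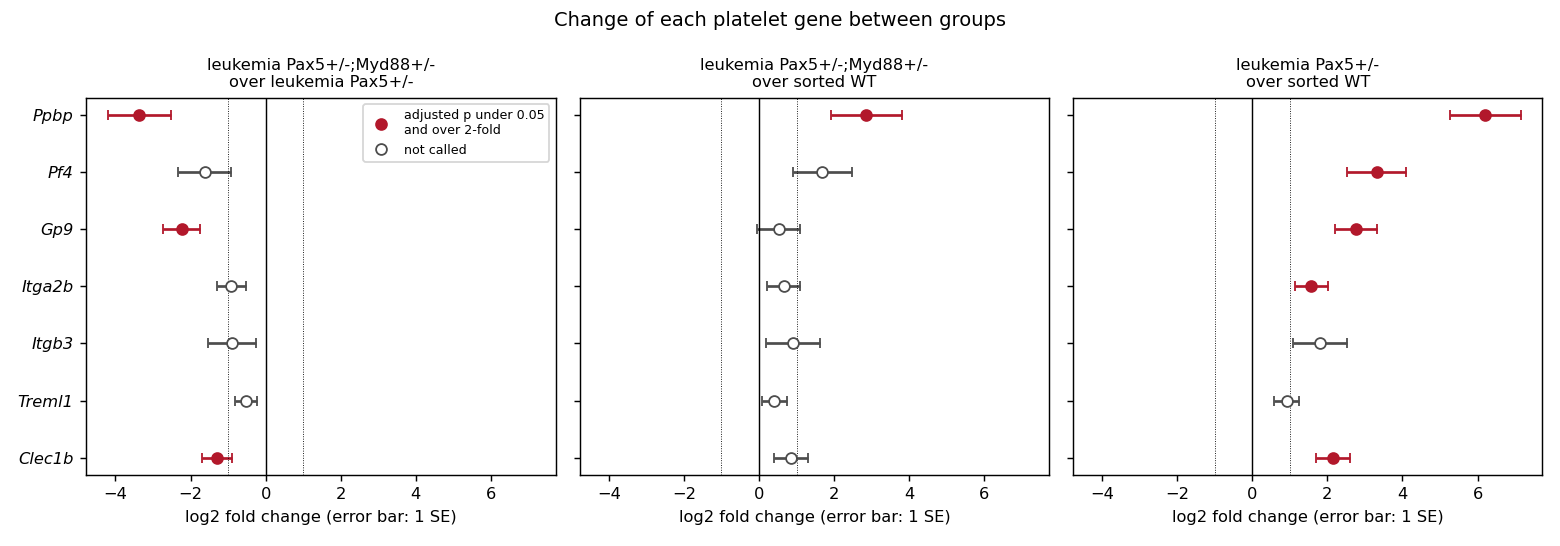
log2 fold change of each gene (horizontal axis, error bars 1 SE) in the 3 comparisons of the leukemia experiment. Filled red points were called, dotted lines mark a 2-fold change, and all 7 points lie below 0 for Pax5+/-;Myd88+/- over Pax5+/- leukemias and above 0 over sorted WT cells in both leukemia groups.

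Other marker lists moved in the same comparison. Of 15 measured granulocyte genes all were below 0 in Pax5+/-;Myd88+/- leukemias over Pax5+/- leukemias, with a median of -1.17, and 1 was called lower (Mmp9, the gelatinase of neutrophil granules, log2 -2.15). Of the other lists, 2 of 13 macrophage genes (Lyz2 and Vcam1), 3 of 12 stromal genes (Postn, Sparc and Dcn) and 2 of 8 endothelial genes (Emcn and Cdh5) were called lower. The medians of these 3 lists were -0.58, -0.42 and -0.44. The mean signal of the granulocyte list ranged from 6.66 to 9.43 in Pax5+/-;Myd88+/- leukemias and from 7.08 to 11.13 in Pax5+/- leukemias, and that of the endothelial list from 7.06 to 8.39 in Pax5+/-;Myd88+/- leukemias and from 7.52 to 8.77 in Pax5+/- leukemias. Of 11 precursor B-cell genes 2 were called higher (Dntt, log2 2.51, and Vpreb1, log2 1.92). None of 8 measured erythroid genes was called, and their median was 0.15. The part of these cells in the platelet gene differences was not tested.

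Pax5+/- leukemias stood furthest from sorted WT cells. Ppbp was 74.2-fold higher (log2 6.21, SE 0.95, adjusted p = 0.000279), the largest rise of any probeset. Pf4 was 9.89-fold higher (log2 3.31, SE 0.79, adjusted p = 0.0071), Gp9 6.79-fold (log2 2.76, SE 0.56, adjusted p = 0.00218), Clec1b 4.44-fold (log2 2.15, SE 0.45, adjusted p = 0.00271) and Itga2b 2.97-fold (log2 1.57, SE 0.44, adjusted p = 0.0166). These 5 of 7 were called higher, against 2.73% of all probesets. Itgb3 (log2 1.80, SE 0.72, adjusted p = 0.0811) and Treml1 (log2 0.92, SE 0.33, adjusted p = 0.0515) were not called. For all 7 genes every Pax5+/- leukemia was above every sorted WT sample, as was the case for 11.0% of probesets. The median over the 7 genes was 2.15, against -0.03 over all probesets.

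In Pax5+/-;Myd88+/- leukemias over the same sorted WT cells, Ppbp alone was called, 7.24-fold higher (log2 2.86, SE 0.95, adjusted p = 0.0322). That is 1 of 7 genes, against 3.33% of all probesets. The call was lost when Pax5+/-;Myd88+/- replicate 1, 2 or 5 or any single sorted WT sample was left out (0 of 7). With 1 array left out the log2 change of Ppbp lay between 2.24 (without Pax5+/-;Myd88+/- replicate 2, a shift of over 1.5-fold) and 3.36 (without replicate 3). The remaining genes were between 0.41 (Treml1, adjusted p = 0.384) and 1.69 (Pf4, SE 0.79, adjusted p = 0.125) above sorted WT cells on the log2 scale, with a median of 0.86 over the 7 genes, against -0.01 over all probesets. Only Ppbp and Clec1b were apart from sorted WT cells on every array (2 of 7), as were 12.3% of probesets. This comparison and the preceding one share their 4 sorted WT samples.

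Both comparisons with sorted WT cells also carried differences in other lists. In Pax5+/- leukemias, 6 of 13 macrophage genes (Vcam1, log2 3.75, and C1qb, log2 3.16, rose most), 7 of 12 stromal genes (Sparc, log2 4.23, and Postn, log2 2.50) and 4 of 8 endothelial genes (Emcn, log2 2.84, and Cdh5, log2 2.24) were called higher. In Pax5+/-;Myd88+/- leukemias these counts were 4, 5 and 1. Of 8 erythroid genes 4 were called lower in each leukemia group, led by Alas2 (log2 -2.76 in Pax5+/-;Myd88+/- and -2.91 in Pax5+/- leukemias), which makes the first step of heme synthesis. Of 9 NK-cell genes 7 were called lower in each, and the mean of this list was 5.76 to 6.25 in Pax5+/-;Myd88+/- leukemias and 5.66 to 6.08 in Pax5+/- leukemias, against 7.81 to 8.64 in sorted WT cells. The mean of the precursor B-cell list was 9.34 to 11.58 in Pax5+/-;Myd88+/- leukemias and 8.35 to 11.47 in Pax5+/- leukemias, against 11.59 to 11.81 in sorted WT cells. The sorted WT samples thus carried the precursor B-cell markers their label names, with NK-cell and erythroid markers beside them. They differed in granulocyte markers, with list means of 9.03 and 8.86 in replicates 1 and 2 against 6.97 and 6.95 in replicates 3 and 4. The part of other cells in the platelet gene differences was not tested.

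Within a leukemia group, the same arrays were high or low in nearly all of the genes. Among Pax5+/-;Myd88+/- leukemias, replicate 2 was highest for all 7 genes, and replicate 3 was lowest for 6 and replicate 6 for Pf4. Among Pax5+/- leukemias, replicate 5 was highest and replicate 6 lowest for all 7. The mean of the 7 genes was 7.86, 9.56, 6.34, 7.13, 8.74 and 6.57 in Pax5+/-;Myd88+/- replicates 1 to 6, and 8.70, 9.30, 8.82, 10.01, 10.50 and 8.18 in Pax5+/- replicates 1 to 6, against 6.53 to 6.59 in sorted WT samples. Pax5+/-;Myd88+/- replicates 1, 2 and 5 were above every sorted WT sample for all 7 genes, while replicates 3, 4 and 6 were so for 3, 5 and 3 of them. Replicates 3 and 6 were below every Pax5+/- leukemia for all 7 genes.

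**Figure D3:**
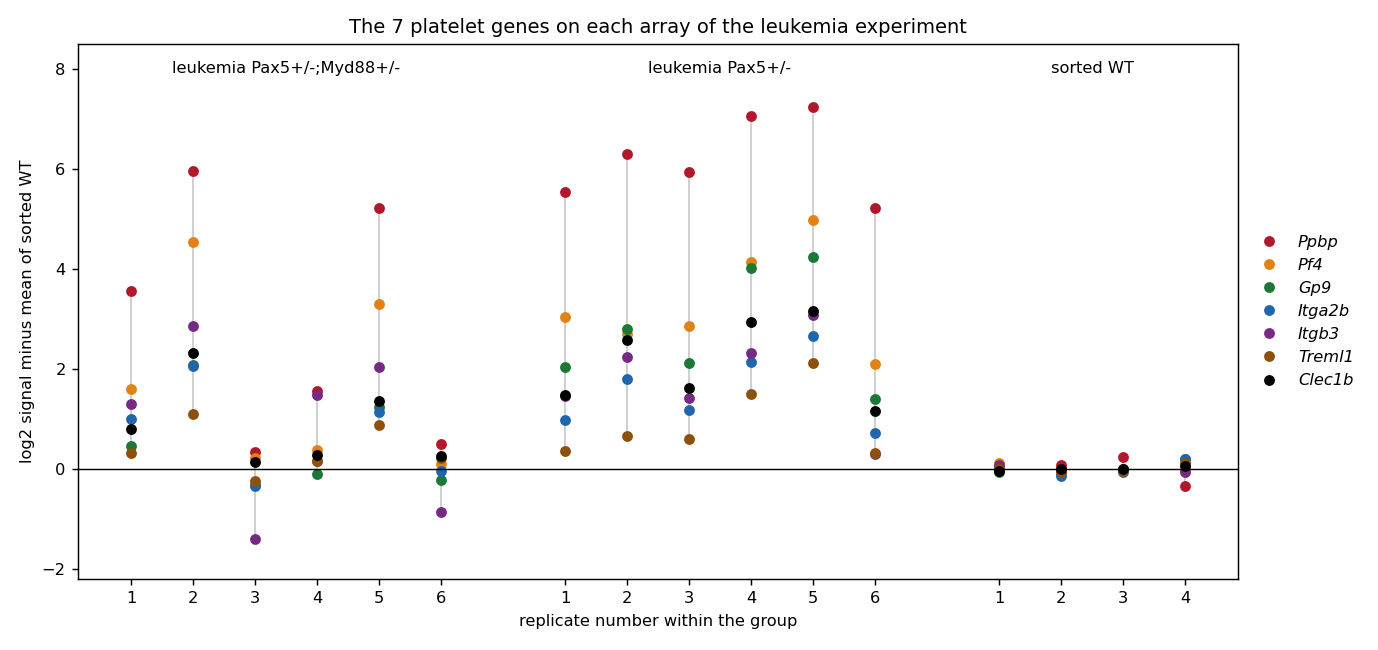
log2 signal of each gene minus its mean in sorted WT cells (vertical axis), for each array of the leukemia experiment in order of replicate number, with a grey line joining the lowest and the highest gene of an array. Pax5+/-;Myd88+/- replicates 3 and 6 sit near 0 except for Itgb3, which is below it, replicate 2 is the highest of its group for every gene, and all Pax5+/- leukemias lie above 0.

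The 7 genes varied together between leukemias. With the group means subtracted, all 21 pairs correlated over the 12 leukemic arrays, with Pearson's r from 0.75 to 0.98 (median 0.89) and Spearman's rho, ranked within each group, from 0.80 to 1.00 (median 0.94). All 21 pairs passed for r and all 21 for rho after adjustment over the pairs (permutation within groups, 2-sided, adjusted p for r from 2.1e-05 to 0.00516). The smallest p that 100000 permutations can give is 1e-05. Ppbp, Gp9, Itga2b and Clec1b placed all arrays of each leukemia group in exactly the same order. Gp9 and Clec1b were closest (r = 0.98, rho = 1.00), and Ppbp and Treml1 had the lowest r (r = 0.75, rho = 0.97). The chemokine neighbors Ppbp and Pf4 gave r = 0.94 and rho = 0.86, and the 2 chains of the fibrinogen receptor, Itga2b and Itgb3, gave r = 0.89 and rho = 0.94. Without the 2 arrays farthest from the median of the x gene, the median r was 0.84 and the lowest 0.66.

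**Figure D4:**
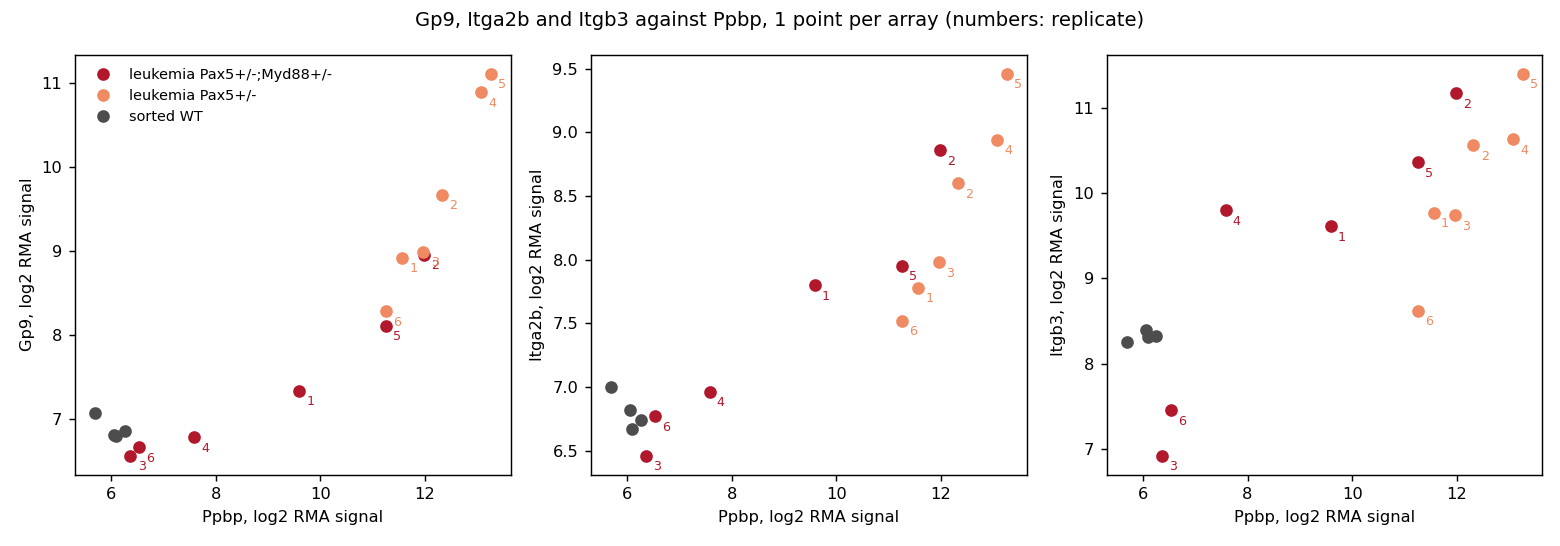
log2 RMA signal of Gp9, Itga2b and Itgb3 (vertical axes) against Ppbp (horizontal axis), with 1 point per array, numbered by replicate for the leukemias. Within each leukemia group Gp9 and Itga2b keep the order of Ppbp, and Itgb3 departs from it at Pax5+/-;Myd88+/- replicate 4 and at Pax5+/- replicates 1 and 3, where it is nearly level (9.77 and 9.74).

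The genes also varied together in each leukemia group alone. In the 6 Pax5+/-;Myd88+/- leukemias the median r was 0.94, and 18 of 21 pairs passed after adjustment for r and 19 for rho (exact permutation, 2-sided). In the 6 Pax5+/- leukemias the median r was 0.94, with 21 pairs passing for r and 15 for rho. Without the 2 farthest arrays, the lowest r of a pair was 0.56 in Pax5+/-;Myd88+/- and 0.32 in Pax5+/- leukemias. Each gene followed the mean of the other 6 genes over the 12 leukemias, from r = 0.87 for Treml1 to r = 0.98 for Itga2b. In the 16 proB cultures, where the genes barely varied, r lay between -0.27 and 0.61 with a median of 0.18.

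Some markers of other cells shared parts of this order of arrays. In Pax5+/-;Myd88+/- leukemias, replicates 2, 5 and 1 had the highest means of the 7 platelet genes, and they also had the highest means of the endothelial list (8.39, 8.09 and 7.70, against 7.06 to 7.20 in the others) and of the stromal list (8.71, 7.55 and 7.52, against 6.91 to 7.25). The macrophage list was highest in replicates 2 and 4 of that group (9.38 and 9.36). In Pax5+/- leukemias the endothelial list was highest in replicate 5 (8.77), as were the platelet genes, and the stromal (8.69) and macrophage (8.97) lists in replicate 1. In Pax5+/- leukemias, replicates 2, 4 and 5 had the highest means of the 7 platelet genes and also of the granulocyte list (11.13, 9.24 and 10.78, against 7.08 to 7.51 in the remaining replicates of that group). In Pax5+/-;Myd88+/- leukemias, the granulocyte list was highest in replicate 4 (9.43) and was 6.77 in replicate 2, the array with the highest platelet genes. The erythroid list was highest in that replicate 2 (9.30, against 7.44 to 7.81 in the others of its group). The precursor B-cell list was lowest in Pax5+/-;Myd88+/- replicates 4 and 2 (9.34 and 9.47) and highest in replicate 3 (11.58). In Pax5+/- leukemias it was lowest in replicates 2 and 4 (8.35 and 8.62) and highest in replicate 5 (11.47). The part of these cells in the platelet gene variation was not tested.

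The 12 genes most like the platelet genes were taken by their correlation with the mean of the 7 genes over the 12 leukemic arrays, with group means subtracted, among single-gene probesets with an SD of at least 0.5. They were Alox12 (r = 0.992), Tubb1 (0.983), F2rl2 (0.974), Mfsd2b (0.964), Thbs1 (0.960), Arhgap6 (0.955), Cavin2 (0.944), Vwf (0.944), P2rx1 (0.943), Zswim6 (0.943), Parvb (0.942) and Plxna4 (0.940). Tubb1 encodes the β-tubulin of the platelet's marginal band, Alox12 the platelet lipoxygenase, F2rl2 a thrombin receptor, P2rx1 an ATP receptor, and Thbs1 and Vwf adhesive proteins of the α-granule. Of the 12, 8 were in the other platelet lists, and Mfsd2b, Zswim6, Parvb and Plxna4 were in none. Alox12 averaged 7.17 in Pax5+/-;Myd88+/- and 8.59 in Pax5+/- leukemias, against 5.56 in sorted WT cells. Tubb1 averaged 8.55 in Pax5+/-;Myd88+/- and 9.61 in Pax5+/- leukemias, against 7.12 in sorted WT cells. Zswim6 ran the other way between leukemia and sorted cells, with 6.59 in Pax5+/-;Myd88+/- and 7.31 in Pax5+/- leukemias, against 8.47 in sorted WT cells.

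Of all 19938 genes, 174 (0.873%) correlated above 0.8 with the mean of the 7 genes. Among 19 genes of platelet signaling and cytoskeleton 12 did, among 17 platelet receptors 7 did, and among 10 granule proteins 4 did. Of 10 transcription factors and regulators of megakaryocytes 3 did (Gata1, Nfe2 and Meis1), and the median r of the 10 was 0.11. The others had r of 0.55 (Tal1), 0.16 (Fli1), 0.05 (Zfpm1), -0.06 (Gfi1b), -0.18 (Lyl1), -0.20 (Mecom) and -0.30 (Runx1). Outside the platelet lists, only Vcam1 of 13 macrophage genes and Kdr and Tek of 8 endothelial genes passed 0.8, and none of the erythroid, granulocyte, stromal, NK-cell, mast-cell and precursor B-cell genes did. Just below 0.8, outside the platelet lists, lay Gata2 and Lepr (0.79), Pdgfrb and Robo4 (0.77), Car1 (0.76) and Epor (0.75). The median r was 0.88 for platelet signaling and cytoskeleton genes, 0.77 for platelet receptors and 0.66 for granule proteins, against -0.14 for all genes. It was 0.71 for endothelial genes, 0.50 for erythroid genes, 0.45 for macrophage genes, 0.32 for stromal genes, 0.23 for granulocyte genes and -0.33 for precursor B-cell genes. These genes are not independent of each other, and the correlations are given as a description.

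**Figure D5:**
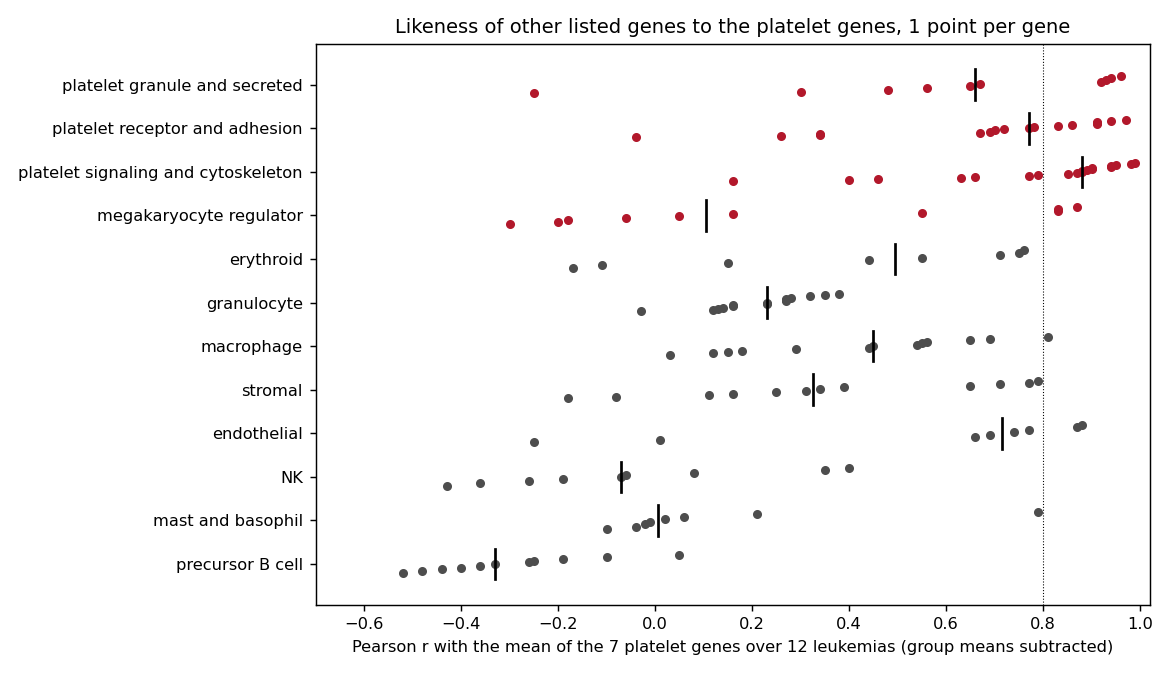
Pearson's r of each listed gene with the mean of the 7 platelet genes over 12 leukemias after subtracting group means (horizontal axis), by list (vertical axis). Red points are genes of platelets and megakaryocytes, grey points those of other cells, black bars medians, and the dotted line marks 0.8, which 0.873% of all genes passed.

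The wider platelet lists were counted in the same comparisons. In Pax5+/- leukemias over sorted WT cells, where 2.73% of all probesets were called higher, 7 of 17 receptor genes were. F2rl2 (log2 2.24) and the ADP receptor P2ry12 (log2 1.71) rose most of these. Of 19 signaling and cytoskeleton genes 7 were called higher, led by Alox12 (log2 3.03) and Myl9 (log2 2.89), a myosin light chain. Of 10 granule genes 2 were called higher (Thbs1, log2 3.20, and Vwf, log2 1.17) and 1 lower (Ccl5, log2 -2.71), a chemokine that NK cells and T cells make too. In Pax5+/-;Myd88+/- leukemias over sorted WT cells, P2ry12 (log2 1.65) and Dok2 (log2 1.12) were called higher, as were 3.33% of all probesets, and Ccl5 (log2 -3.15) lower. Over the 12 leukemias P2ry12, Dok2 and Ccl5 did not follow the 7 genes closely, with r of -0.04, 0.46 and 0.30 with their mean. Between the leukemia groups only Esam, an adhesion molecule of platelets and endothelium, was called of these 46 genes, and it was lower in Pax5+/-;Myd88+/- leukemias (log2 -1.07, adjusted p = 0.0022). Of all probesets 2.56% were called lower. Of those 46 genes 41 were below 0, and the median change over all probesets was 0.01. None of the 10 megakaryocyte regulators was called by limma in any of the 3 comparisons. At a limma adjusted p under 0.05, with no limit on the fold change, 2 of them were higher and 0 lower in Pax5+/-;Myd88+/- over Pax5+/- leukemias. In that comparison 4 of the 10 were above 0 and 6 below. Fli1, which was not called, measured 10.71 to 11.03 in Pax5+/-;Myd88+/- and 10.35 to 10.66 in Pax5+/- leukemias. How many of all probesets lay apart in that direction was not counted here.

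In the proB experiment the platelet genes varied little. Over the 16 cultures Ppbp lay between 5.11 and 5.49, Pf4 between 4.98 and 5.34 and Clec1b between 4.90 and 5.24. None of the 7 genes was called in proB cells of Pax5+/-;Myd88+/- over Pax5+/- (0.812% of all probesets were, in either direction), of Pax5+/-;Myd88-/- over Pax5+/- (0.981%) or of Pax5+/- over WT mice (1.08%). At an unadjusted p under 0.05, Itgb3 and Clec1b passed in the first of these comparisons, none in the second and Itgb3 in the third, and an unmoderated test called 0 in each. Itgb3 had the largest difference, at 7.10, 7.12, 7.17 and 7.29 in Pax5+/-;Myd88+/- proB cells against 7.34, 7.48, 7.52 and 7.68 in Pax5+/- proB cells (log2 -0.34, SE 0.08, adjusted p = 0.0278), which is under 2-fold. In Pax5+/-;Myd88-/- proB cells Itgb3 was 0.01 above Pax5+/- proB cells (adjusted p = 0.98). Clec1b was 0.18 higher in Pax5+/-;Myd88+/- than in Pax5+/- proB cells (SE 0.05, adjusted p = 0.0815). These fits took the samples of each proB group as independent, which was not tested.

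Sorted WT cells and cultured WT proB cells differ in sort and experiment, by the methods also in culture, and possibly in age. These cannot be told apart. None of the 7 genes was called in sorted over cultured WT cells or had an unadjusted p under 0.05, whereas 6.20% of all probesets were called higher. That fit took its spread from all 7 groups, the widely varying leukemias among them, which widened the SE of these genes. The largest differences were those of Itgb3 (log2 1.03, SE 0.59, adjusted p = 0.164), Ppbp (log2 0.77, SE 0.77, adjusted p = 0.454) and Gp9 (log2 0.53, SE 0.45, adjusted p = 0.374). Itgb3 was called (1 of 7) by an unmoderated test. In sorted against cultured WT samples, Itgb3 measured 8.25 to 8.39 against 7.06 to 7.40. Ppbp measured 5.69 to 6.26 against 5.11 to 5.39, and Gp9 6.79 to 7.07 against 6.06 to 6.52. How many of all probesets lay as far apart was not counted here, so nothing particular to these genes is read from the ranges. In the same comparison all 9 NK-cell genes were above 0 and 7 were called higher, as were 5 of 8 erythroid and 5 of 15 granulocyte genes, while 6 of 12 stromal genes were called lower. Of the wider platelet lists, 4 of 10 granule genes were called higher (Ccl5, log2 3.47, and Mmrn1, log2 2.87, rose most) and 1 lower (Thbs1, log2 -3.50). Of 17 receptor genes 2 were called higher (Fcer1g, log2 4.00, and Itga2, log2 1.47), as were 2 of 19 signaling and cytoskeleton genes (Bin2, log2 1.43, and Arhgap6, log2 1.01).

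Whether Myd88 loss went with different changes in leukemia and in proB cells was tested as the difference between the 2 differences. Ppbp, Gp9 and Clec1b were called lower in this test (3 of 7, against 2.79% of all probesets), with log2 values of -3.35 (SE 1.00, adjusted p = 0.0155), -2.36 (SE 0.59, adjusted p = 0.00413) and -1.47 (SE 0.47, adjusted p = 0.0237). The remaining 4 genes had values from -1.70 (Pf4, adjusted p = 0.149) to -0.57 (Itgb3, adjusted p = 0.639).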

How the data were processed

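RNA of 32 samples in 7 groups was hybridized to MoGene-1_0-st arrays. The deposited values are log2 signals with 2 decimals, which the authors summarized per gene by RMA (genome mm10) in Transcriptome Analysis Console 4.0.1. RMA equalizes the distribution of signals between arrays and compresses dim signals, which understates fold changes of dim genes. Whether all arrays were normalized together is not given in the sources used here.

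Groups came from the labels. All 28944 probesets were tested with limma 3.58.1 in R 4.3.3, with Benjamini-Hochberg adjustment over all of them. The leukemia groups and sorted WT cells were fitted together, as were the 4 proB groups, and comparisons across experiments used all arrays. A call needed a change of more than 2-fold at an adjusted p below 0.05. Among the probesets, 21789 name 1 gene, 1621 several and 5534 none. Correlations used Python 3.11.15 and SciPy 1.17.1. The 36 pairs planned for 9 genes became 21, since 7 were measured. Arrays have no read depth, and their number limits the precision.

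Named genes are the 9 markers, the called genes of each other list with the 2 largest rises and the 2 largest falls in a comparison, and the 12 genes most like the markers. Genes of small counts and other genes named by their correlation were chosen after their values were seen. The 9 markers and all lists were chosen with earlier results of these data known, so they are no independent evidence.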

Additional observations from a re-analysis of the deposited data

Results flagged for a closer look

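The 3 results here stood out because the change with Myd88 allele loss differed between leukemias and proB cells by a test of that difference (limma, adjusted over all probesets). The difference was -3.35 for Ppbp, -2.36 for Gp9 and -1.47 for Clec1b on the log2 scale. In leukemias these genes changed by -3.36, -2.24 and -1.30 with Myd88 loss, and in proB cells Gp9 differed by 0.11, Clec1b by 0.18 and Ppbp by less than 0.01. Sorting and experiment, and by the methods culture and age, differ between the 2 sets and cannot be told apart from leukemia. When only the 4 groups compared were fitted, Gp9 alone passed. In the 49 sets of values (7 genes in 7 groups), no single array was far enough from the others to be an outlier by Dixon's test.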

How the results depend on the processing

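The 5 calls in Pax5+/- leukemias over sorted WT cells varied between 4 and 7 over all alternatives, 5 to 7 of them with 1 array left out. The 3 calls in Pax5+/-;Myd88+/- over Pax5+/- leukemias were 4 with all arrays in 1 fit (Pf4 added), 2 with an unmoderated t-test (Ppbp and Gp9), 1 with that of unequal variances, chosen after seeing the data, and 3 to 5 with 1 array left out (5 without Pax5+/-;Myd88+/- replicate 2). The 1 call in Pax5+/-;Myd88+/- leukemias over sorted WT cells became 2 with all arrays in 1 fit and 2 with array weights, and 0 with only the groups compared, 0 with an unmoderated t-test, 0 with that of unequal variances, and 0 to 1 with 1 array left out. In sorted over cultured WT cells, 0 calls became 1 (Itgb3) with only the groups compared, 1 with array weights and 1 with an unmoderated t-test. The 3 calls for the difference between leukemias and proB cells became 1 with only the groups compared and 3 to 5 with 1 array left out (5 without Pax5+/-;Myd88+/- replicate 2). With the replicate number as a block, 3, 1 and 6 genes were called in the 3 leukemia comparisons, 3 in the difference of differences and 0 elsewhere. Samples of the same number came from different mice and correlated between -0.15 and 0.52 in the 2 leukemia groups, so the numbers do not pair them. A filter on probesets with a mean of 6 or more left Clec1b out. The alternative of other probesets of a gene could not be run, since each gene had 1. Over the 12 leukemias all 21 pairs of genes passed by either correlation, on arrays centred on their median and for r with each array left out (median r 0.86 to 0.91). Within a group, 18 passed for r and 19 for rho in Pax5+/-;Myd88+/- leukemias, and 21 and 15 in Pax5+/- leukemias. No result changed its direction. The number of arrays limits the precision, and signal over background was not analysed here.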

Other observations

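The 3 chemokine genes within 100 kb of Ppbp and Pf4 did not share their range. Cxcl5 measured 5.07 to 5.55 over all 32 arrays, Cxcl3 5.57 to 5.94 and Cxcl15 4.69 to 5.22, against 5.11 to 13.26 for Ppbp. Cxcl5 differed by -0.13 between Pax5+/-;Myd88+/- and Pax5+/- leukemias (limma adjusted p = 0.141), Cxcl3 by 0.02 (adjusted p = 0.768) and Cxcl15 by 0.05 (adjusted p = 0.322). The probeset shared by Septin5 and Gp1bb, which cannot be assigned to either gene, measured 6.74 to 7.35 in Pax5+/-;Myd88+/- leukemias and 7.04 to 8.55 in Pax5+/- leukemias, against 6.75 to 7.02 in sorted WT cells. It was highest in Pax5+/- replicates 2 and 5 (8.55 in both), and in Pax5+/-;Myd88+/- replicate 2 (7.35) of that group.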
